A study of Mus musculus with 12 samples.

Results

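The comparison asked how tumors of mice given interleukin-10 as an Fc fusion protein differed in their transcripts from tumors of mice given a control antibody. It covered 6 of the 12 tumors of the series, 3 from IL-10-Fc mice (replicates 2, 4 and 7) and 3 from control mice (replicates 4, 5 and 7), chosen by their labelled treatment. All were grown from 4T1 cells, a mouse mammary carcinoma line, placed orthotopically in Balb/c mice, and each tumor gave 1 library of stranded polyadenylated RNA. IL-10-Fc mice received recombinant human interleukin-10 joined to an antibody Fc part and control mice received an IgG1-Fc isotype control. Dosing began per the labels at a tumor volume of 100 mm3 and ran for 6 doses, although the series description gives fewer. The other 6 tumors were treated with an antibody to the macrophage growth factor receptor CSF1R (aCSF1R) or with that antibody joined to interleukin-10 (BF10). They entered the estimate of the spread between tumors and the filter on low values. They also entered the estimate of the library-set effect described below, and thus every change given with that term, and the median of ratios scaling. Each tumor is a mixture of 4T1 cells, a line rather than a fresh carcinoma, and of host cells.

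Interleukin-10 binds a receptor made of the chains encoded by Il10ra and Il10rb, which acts through the kinases JAK1 and TYK2 and the transcription factor STAT3. In macrophages this pathway is known to lower inflammatory cytokines and to raise Socs3, Il4ra and related genes. In CD8 T cells already exposed to antigen it is known to sustain cytotoxicity and the production of interferon-gamma, a cytokine that acts on most cells and raises guanylate-binding proteins, antigen presentation and the chemokines Cxcl9 and Cxcl10.

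The libraries fell into 2 sets that cut across the treatments. The deposited values (FPKM, fragments per kilobase of transcript, scaled to library size) summed to 782919 in IL-10-Fc replicate 7 and to 891627 and 901921 in control replicates 4 and 7, called higher-sum libraries here. They summed to 629766 to 648413 in the other 3 of the 6. A term for the set, fitted beside the 4 treatments, passed the threshold for 9180 of the 15504 genes tested (59.2%). The first principal component of all 12 libraries, with 69.5% of the variance, separated the sets. Because the sets were divided by the sums of these same columns, both values describe the split and are not a separate test of it. Ribosomal protein genes held 20.9% to 24.0% of the signal in the higher-sum and 14.2% to 15.5% in the lower-sum tumors, and IL-10-Fc replicate 7 lay between the lower-sum libraries and both higher-sum controls on that share and on the component. Because 2 of 3 controls but 1 of 3 IL-10-Fc tumors were higher-sum libraries, each result is given from the fit with 1 mean per treatment and beside it from the fit with the set as a term. Control replicate 7 also stood apart in B cell transcripts, with Cd79a at 11.8 TPM (the FPKM value rescaled to a column sum of 1000000) against 0.222 to 0.817 in the other 5 tumors and Jchain at 312 against 1.32 to 18.5. In that control tumor mammary secretory genes summed to 271 TPM, against 4.89 to 11.7 TPM in the other 5. Adipocyte genes summed to 380 TPM in it, 72.9 and 98.1 TPM in the other controls and 141 to 461 TPM in IL-10-Fc tumors. The source of these transcripts was not tested. Skeletal muscle actin Acta1 was 19.1 TPM in IL-10-Fc replicate 7 and 0 to 3.23 in the other 5. The carcinoma markers Krt8, 316 to 986 TPM, and Epcam, 38.08 to 73.3 TPM, were present in all 6 tumors, as the tissue label requires.

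One gene passed the threshold (Benjamini-Hochberg adjusted p below 0.05 in limma, at least 1.5-fold) among 15504 tested, which is 0.00645% of them. Tmsb15a, which encodes a beta-thymosin, a small protein that binds actin monomers, fell in IL-10-Fc tumors. Its level was 0, 0 and 0.166 TPM in IL-10-Fc replicates 2, 4 and 7 and 4.83, 3.13 and 3.33 TPM in control replicates 4, 5 and 7. Every IL-10-Fc tumor was thus far below every control tumor, and the log2 change of -2.16 (SE 0.23, adjusted p = 0.031) was nearly the same with the set as a term (-2.07, SE 0.20, adjusted p = 0.012). The call needed all 6 tumors in the fit with 1 mean per treatment, where its adjusted p was 0.205, 0.111 and 0.159 without control replicates 4, 5 and 7 and 0.346, 0.364 and 0.0886 without IL-10-Fc replicates 2, 4 and 7, while its log2 change stayed between -2.26 and -2.005. The gene lies on the reverse strand of chromosome X at 135718667 to 135725261 (GRCm38) and is low in all tumors, and it has close copies, so that the share of reads given to each copy is uncertain. Of those copies, Tmsb15b1 was 1.05 to 1.16 TPM in IL-10-Fc and 1.25 to 4.28 TPM in control tumors, Tmsb15b2 was 1.68 to 3.86 and 2.99 to 6.05 TPM, and neither passed the test. Tmsb10, the abundant relative, was 2075 to 3055 TPM in IL-10-Fc and 1554 to 2609 TPM in control tumors, and Tmsb4x was 3049.9 to 4586 and 3237 to 7194 TPM. In these bulk samples fewer cells of a type and less RNA per cell cannot be told apart.

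With the set as a term, 4 of 15504 genes passed (0.0258%), and they were Tmsb15a, Gbp5 and 2 small RNA genes. Gbp5, a guanylate-binding protein induced by interferon that promotes inflammasome activity, rose by 1.07 on the log2 scale in that fit (SE 0.14, adjusted p = 0.047), while without the term its change was 1.21 (SE 0.25, adjusted p = 0.738). Its adjusted p with the term was 0.907 under median of ratios scaling and between 0.0688 and 0.63 when any 1 tumor was left out. The small nucleolar RNA gene Gm22680 (chromosome 19, 8725341 to 8725409, forward strand, inside Snhg1) rose, with 56.8, 48.8 and 38.9 TPM in IL-10-Fc and 0, 2.99 and 0 TPM in control tumors (adjusted p = 0.020 with the term, 0.541 without). The microRNA gene Gm47314 (chromosome 2, 122028642 to 122028709, inside Eif3j1) was 10.3, 9.89 and 2.92 TPM in IL-10-Fc tumors and listed at 0 in the control tumors (adjusted p = 0.040 with the term, 0.126 without). Both lie within longer transcripts of the same strand and are shorter than the fragments of such libraries, so their estimated levels are uncertain. Leaving out any 1 of the 6 tumors ended the call of Gm22680 in the fit with the term (adjusted p 0.0529 to 0.214), and leaving out any but IL-10-Fc replicate 7 ended that of Gm47314 (adjusted p 0.0797 to 0.63, and 0.0303 without that replicate).

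Below the threshold, an unadjusted p below 0.05 was reached by 160 higher (1.03%) and 64 lower (0.413%) genes, and with the set as a term by 442 higher (2.85%) and 132 lower (0.851%) genes. All 3 IL-10-Fc tumors lay above all 3 controls for 736 genes (4.75%) and below them for 276 genes (1.78%). The middle gene was 0.35 higher in IL-10-Fc tumors on the log2 scale, 0.10 higher with the set as a term and 0.00 when libraries were scaled by the median of ratios, so log2 changes below are to be read against these medians. Without control replicate 7 the middle gene was 0.22 higher, or 0.10 with the term. An exact permutation test of 3 against 3 tumors cannot give a p below 0.1 and was not used for single genes. The genes named from here on did not pass the threshold (adjusted p = 0.738 in the fit without the term for the other 23 of the 24 genes plotted as named genes), and their values are a description of these 6 tumors.

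**Figure D1:**
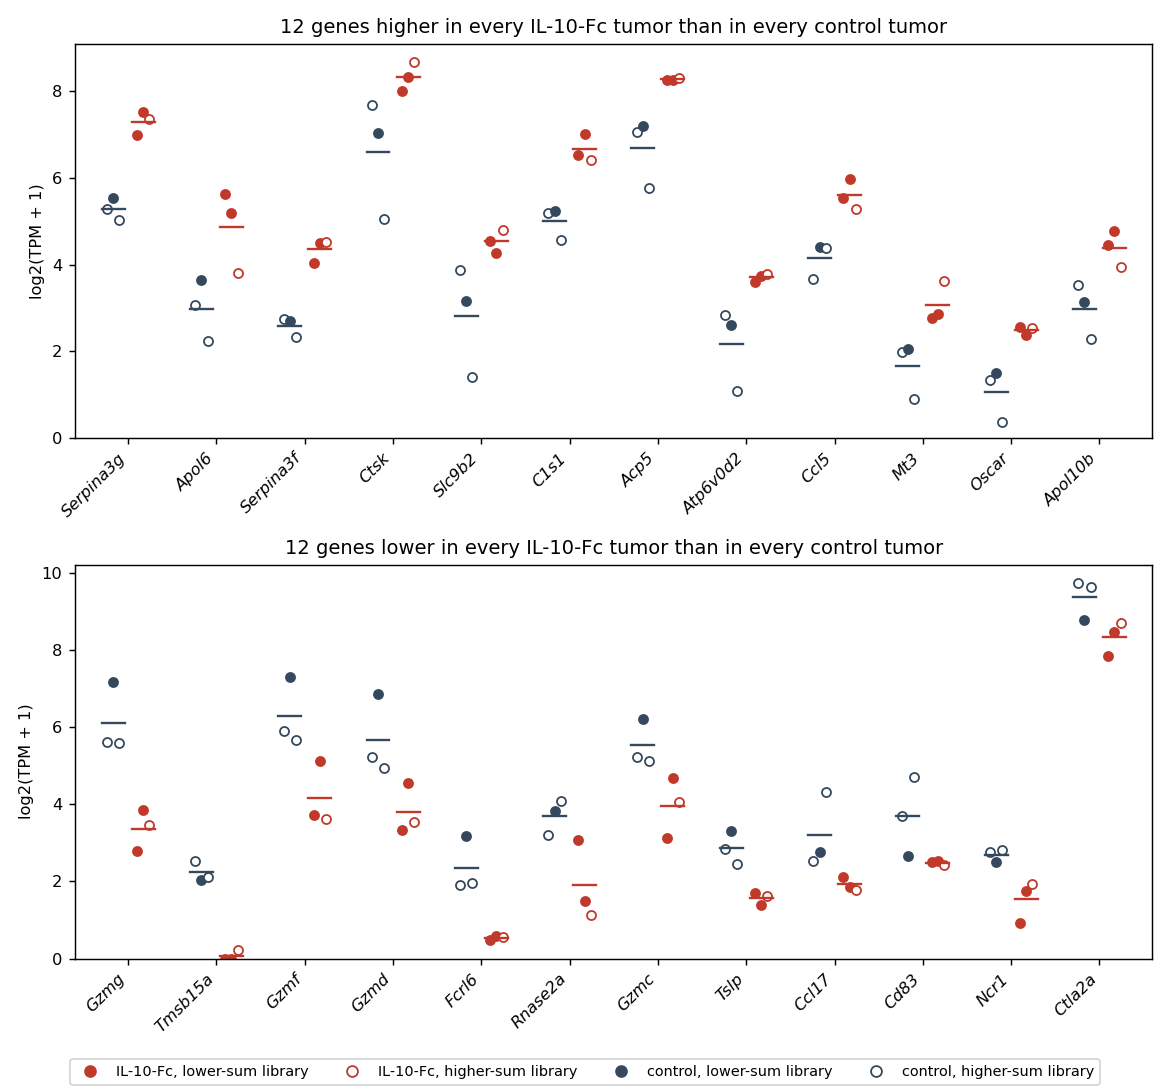
Level of 24 genes in each tumor, as log2(TPM + 1) on the vertical axis, for 12 genes higher and 12 lower in IL-10-Fc tumors. They have the largest changes among genes with an official symbol that encode proteins, did not overlap, reached at least 3 TPM in either group and had an unadjusted p below 0.05 and one direction in both fits and library sets. Points are tumors (red, IL-10-Fc; blue, control; filled, lower-sum library; open, higher-sum library) and bars are group means; Tmsb15a, lower row, is the one gene of the plot that passed the threshold, and Ctsk, Slc9b2 and Atp6v0d2, upper row, show control replicate 7 as the lowest point.

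The guanylate-binding proteins, GTPases that interferon-gamma induces and that attack the vacuoles of intracellular pathogens, were higher in IL-10-Fc tumors. All 11 were tested, 8 of them had every IL-10-Fc tumor above every control tumor (against 4.75% of all genes), and their median log2 change was 0.79, or 0.67 with the set as a term, against 0.35 and 0.10 for all genes. The promoter stretches of the members with a RefSeq entry are shown because the family was higher in the IL-10-Fc tumors. With them are those of 3 serpins described below, whose family was also higher, chosen because they held a motif given next. Capitals mark 2 motifs searched on both strands in the 250 bases before the transcription start, the GAS motif of genes induced by interferon-gamma (TTCNNNGAA, the same on both strands) and an ISRE-type motif bound by interferon regulatory factors (GAAANNGAA). Coordinates are GRCm38.p6, and each stretch runs 5′ to 3′ on the gene's strand to the base before the RefSeq start.
Gbp5, chr3:142496684-142496933, forward strand: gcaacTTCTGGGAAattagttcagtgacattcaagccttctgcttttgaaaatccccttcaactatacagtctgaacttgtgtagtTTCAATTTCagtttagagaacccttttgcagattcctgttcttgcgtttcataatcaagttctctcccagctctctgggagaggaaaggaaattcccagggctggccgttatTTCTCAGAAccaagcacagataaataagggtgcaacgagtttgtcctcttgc
Gbp7, chr3:142530215-142530335, forward strand: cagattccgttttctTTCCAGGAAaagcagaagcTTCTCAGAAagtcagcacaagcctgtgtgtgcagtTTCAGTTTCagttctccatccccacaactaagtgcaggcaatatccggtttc
Gbp2, chr3:142620590-142620662, forward strand: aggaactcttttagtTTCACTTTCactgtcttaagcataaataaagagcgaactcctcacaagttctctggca
Gbp2b, chr3:142594696-142594846, forward strand: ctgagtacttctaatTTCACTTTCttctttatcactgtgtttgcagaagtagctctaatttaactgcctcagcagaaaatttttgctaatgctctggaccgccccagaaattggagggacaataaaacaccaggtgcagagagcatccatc
Gbp3, chr3:142559985-142560043, forward strand: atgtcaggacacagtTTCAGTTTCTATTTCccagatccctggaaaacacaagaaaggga
Serpina3g, chr12:104236099-104236146, forward strand: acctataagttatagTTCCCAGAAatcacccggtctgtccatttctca
Serpina3f, chr12:104214402-104214543, forward strand: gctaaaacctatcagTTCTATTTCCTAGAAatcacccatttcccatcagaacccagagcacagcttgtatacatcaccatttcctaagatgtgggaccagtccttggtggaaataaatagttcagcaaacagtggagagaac
Serpina3i, chr12:104263005-104263121, forward strand: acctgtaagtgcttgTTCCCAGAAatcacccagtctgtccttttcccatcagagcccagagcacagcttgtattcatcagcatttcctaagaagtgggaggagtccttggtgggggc

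An ISRE-type motif was present in 5 of the 5 guanylate-binding protein genes with a promoter entry (100.0%) and in 8.18% of the 27025 genes of the whole table, and a GAS motif in 2 of 5 (40.0%) against 8.13%. Gbp3 has a second RefSeq start whose stretch held neither. Of the 5 Serpina3 genes with an entry 3 held GAS and 1 the ISRE-type motif. Serpina3c and Serpina3n, whose stretches are not shown, held neither. In Gbp3 both ISRE-type matches overlap, and in Serpina3f the GAS match overlaps the ISRE-type match, by 3 bases in each case. The family's promoters are related by descent and are not independent examples. Among genes of the interferon-gamma list 5 of 14 held GAS and 4 of 14 the ISRE-type motif, and among the MHC class I list 2 of 20 and 4 of 20. Of the 12 named higher genes, 9 had an entry, with GAS in 2 (Serpina3f and Serpina3g) and the ISRE-type motif in 2 (Acp5 and Serpina3f). Of the 12 named lower genes, 10 had an entry, with GAS in 2 (Ccl17 and Ctla2a) and the ISRE-type motif in 1 (Rnase2a). A match is a run of letters and not a measured binding site. Gbp4, Gbp6, Gbp8, Gbp9, Gbp10, Gbp11, Apol6, Atp6v0d2, Ccl5, Cd83 and Tslp had no entry.

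Gbp5 was 40.2, 45.3 and 33.4 TPM in IL-10-Fc replicates 2, 4 and 7 and 17.5, 19.4 and 13.1 TPM in control replicates 4, 5 and 7, a ratio of means of 2.38. Gbp4 was 201, 213 and 156 TPM against 107, 74.7 and 56.9 TPM (log2 change 1.279, SE 0.29). Gbp3 was 111, 122 and 106 TPM against 70.4, 63.3 and 48.2 TPM. For these 3 genes the lowest IL-10-Fc tumor was above the highest control. Gbp10, Gbp6, Gbp2, Gbp2b and Gbp9 also did not overlap, with log2 changes of 0.42 to 0.86, while Gbp7, Gbp8 and Gbp11 did. Gbp2 and Gbp2b were the most abundant, at 329 to 370 and 269 to 294 TPM in IL-10-Fc tumors. All 8 of the non-overlapping genes stayed so without control replicate 7, when 5.77% of all genes did, and the family's median was then 0.60 in both fits. Under median of ratios scaling it was 0.36, and 0.52 with the set term added.

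**Figure D2:**
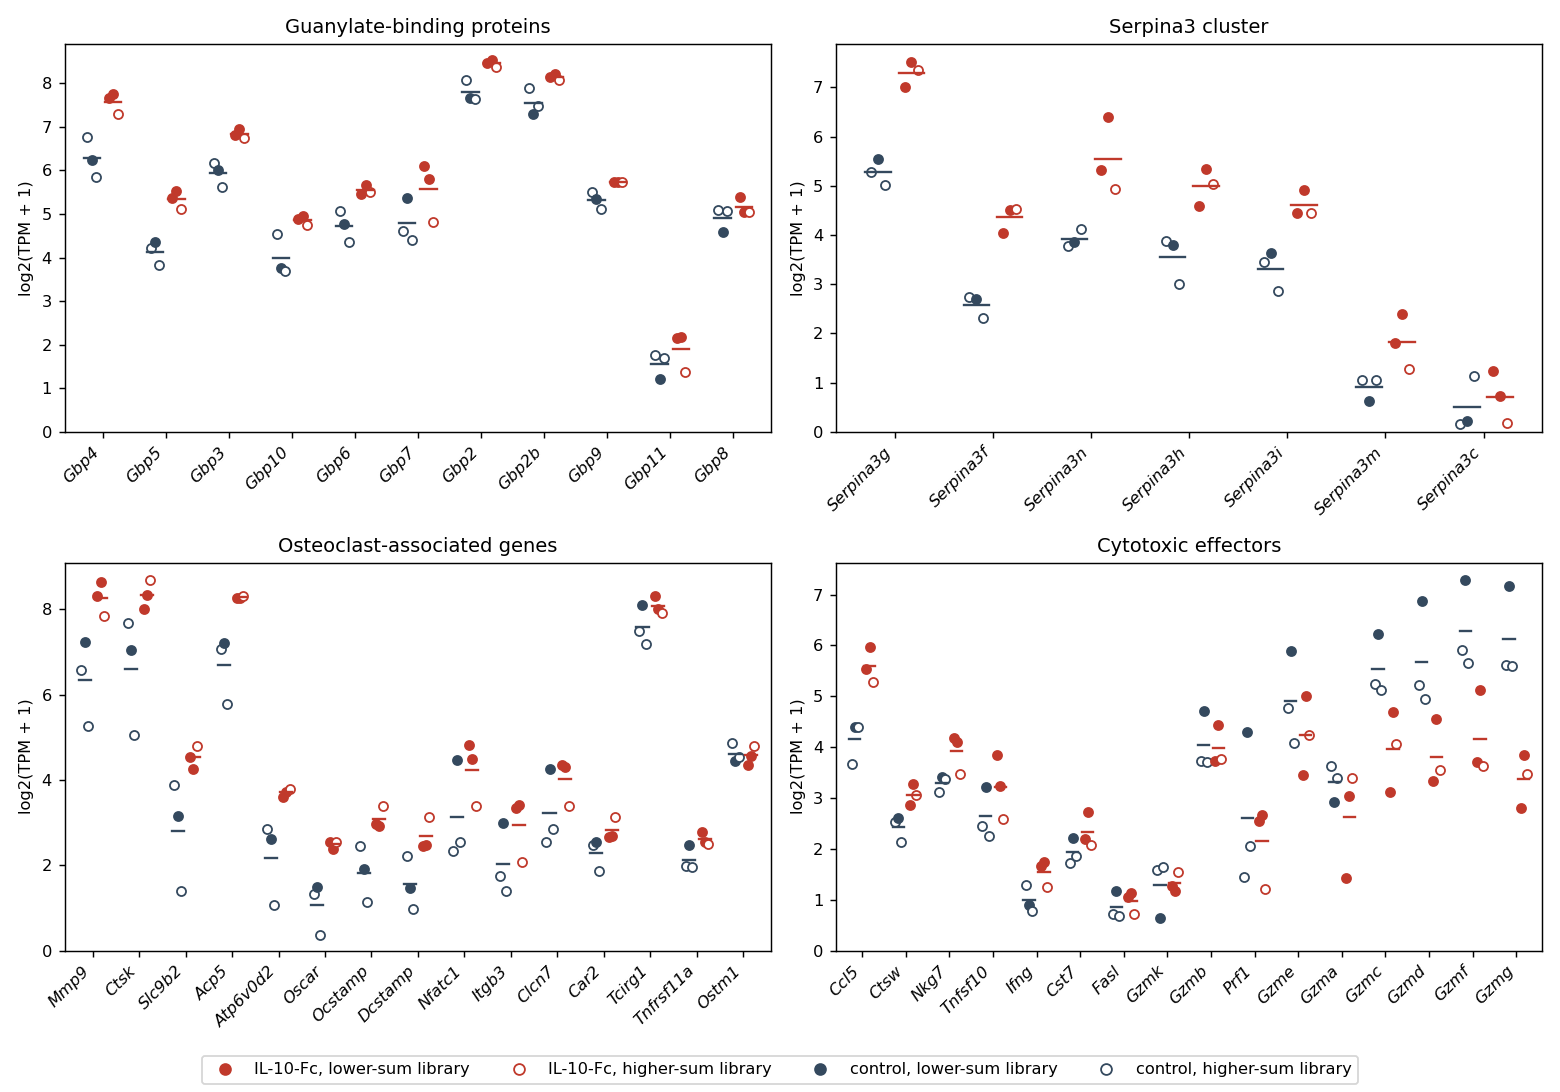
Levels of 4 gene families in each tumor as log2(TPM + 1), ordered from the highest to the lowest log2 change, with red points for IL-10-Fc and blue points for control tumors, open points for higher-sum libraries and bars for group means. Red points lie above all blue points in 8 of 11 guanylate-binding proteins and 6 of 7 Serpina3 genes, and below them in the last 4 granzymes of the lower right panel, Gzmc, Gzmd, Gzmf and Gzmg.

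Other genes of the interferon-gamma response were mostly higher. The list of 20, all tested, had a median log2 change of 0.96 (0.55 with the set as a term). It includes Serpina3g, which is described below with its cluster. In 3 of the 20 every IL-10-Fc tumor was above every control and in 1 below (4.75% and 1.78% of all genes), and in 14 of the 20 every IL-10-Fc tumor exceeded every control of its own library set, against 17.5% of all genes. Ifng itself, encoding the cytokine, was 2.18, 2.33 and 1.37 TPM in IL-10-Fc and 1.45, 0.873 and 0.721 TPM in control tumors, so the groups overlapped. Cxcl10, a chemokine that attracts T cells, was 66.0, 73.8 and 44.6 TPM against 31.5, 34.97 and 16.5 TPM and did not overlap. Batf2, a transcription factor induced by interferon in macrophages, was 36.6, 23.3 and 8.85 TPM against 4.13, 16.1 and 4.22 TPM. Jak2, a kinase of the interferon-gamma receptor, went the other way, at 143, 148 and 143 TPM against 164, 178 and 152 TPM. The list's median was 0.75 without control replicate 7 (0.52 with the set as a term) and 0.52 under median of ratios scaling.

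The immunity-related GTPases, which act with the guanylate-binding proteins, had 9 of 10 members tested and a median of 0.87 (0.52 with the set term). That median was 0.48 (0.34) without control replicate 7. In 1 of the 9 every IL-10-Fc tumor was above every control (4.75% of all genes). Igtp was 243, 218 and 106 TPM in IL-10-Fc and 77.5, 114 and 61.6 TPM in control tumors. Irgm2 was 93.4, 69.2 and 23.2 TPM against 17.8, 51.4 and 12.2 TPM, so that for both the lowest IL-10-Fc tumor was the higher-sum library. The 30 type I interferon-stimulated genes, all tested, did not stand out, with a median of 0.42 (0.12 with the term, and -0.02 when median of ratios scaling was added to it), close to that of all genes, and 0.17 (0.02) without control replicate 7. Of the 30, 23 had a log2 change above 0 and 7 below it. In 2 every IL-10-Fc tumor was above every control and in 0 below (4.75% and 1.78% of all genes). Among the 7, Ifi27l2a was 86.8, 107 and 91.1 TPM against 128, 83.5 and 203 TPM and Ifit3 was 18.6, 24.8 and 17.5 TPM against 34.7, 23.2 and 26.0 TPM.

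MHC class I genes, which display peptides to CD8 T cells, and the immunoproteasome that cuts those peptides made up a list of 22, all tested. Their median log2 change was 0.77 (0.37 with the set term), and in 18 of 22 each IL-10-Fc tumor was above each control of its library set, with 0 of 22 below (17.5% and 6.61% of all genes). Tap1, a subunit of the peptide transporter, was 184, 195 and 154 TPM in IL-10-Fc and 101, 110 and 91.0 TPM in control tumors, with no overlap. Psmb9, an immunoproteasome subunit, was 306, 333 and 233 TPM against 176.5, 197 and 158 TPM. Tap2 was 116, 113 and 42.4 TPM against 20.5, 85.2 and 27.4 TPM, and Tapbpl, an editor of bound peptides, 52.3, 31.2 and 10.99 TPM against 5.16, 28.8 and 5.87 TPM. Both of the latter were low in the higher-sum libraries of either treatment. The shared light chain gene B2m was 4101, 4601 and 5531 TPM against 7698, 3334 and 7683 TPM, a log2 change of -0.31 that was 0.00 with the set term. Class II genes, which serve CD4 T cells, had a median of 0.65 (0.29 with the term) over 13 tested, and of 0.72 (0.65) without control replicate 7. Of these H2-DMb2, a peptide-loading subunit, was 185, 146 and 57.1 TPM against 32.8, 77.2 and 51.1 TPM, and H2-Ob, a B cell gene that restrains loading, was 0.785, 0.463 and 0.281 TPM against 1.12, 0.905 and 7.10 TPM, the last in the control tumor with B cell transcripts.

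The largest log2 change among the 12 named higher genes was that of Serpina3g, an intracellular serpin of the Serpina3 cluster on chromosome 12 (104236245 to 104241939, forward strand) that inhibits cathepsins. It was 127, 182 and 163 TPM in IL-10-Fc tumors and 37.7, 45.5 and 31.5 TPM in controls. Its means were 157 ± 27.9 and 38.3 ± 7.02 TPM (SD, n = 3 each), a ratio of 4.11, and its log2 change was 2.01 (SE 0.46; 1.79 with the set term). Serpina3f was 15.4, 21.7 and 22.1 TPM against 5.70, 5.48 and 3.98 TPM (log2 change 1.77, SE 0.33). The cluster was examined after these values were seen, and both genes had been named for lack of overlap. Of the cluster's 7 tested members 6 did not overlap (4.75% of all genes), a count partly fixed in advance by that choice. The cluster's median log2 change was 1.43, or 1.12 with the set term. The others without overlap were Serpina3h, Serpina3i, Serpina3m and Serpina3n, with changes of 0.92 to 1.63. Serpina3c overlapped at 1.351 TPM or less in every tumor. These genes are near copies of one another, so the split of reads between them is uncertain, although their sum ran from 229 to 360 TPM in IL-10-Fc and from 67.7 to 89.4 TPM in control tumors.

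In the complement list, 21 of 23 genes were tested and their median was 0.53 (0.34 with the set term). Of the 21, 6 were above and 1 below all controls (4.75% and 1.78% of all genes). The proteases of the first component and their inhibitor were higher. C1s1, encoding the protease C1s, was 91.9, 129 and 84.4 TPM in IL-10-Fc and 35.6, 36.7 and 22.5 TPM in control tumors (log2 change 1.66, SE 0.49), and its close copy C1s2 was 7.51, 10.4 and 7.41 TPM against 3.10, 3.24 and 2.05 TPM. Serping1, the C1 inhibitor, was 126, 252 and 120 TPM against 47.5, 65.8 and 34.7 TPM. These 3 genes did not overlap, and C1s1 had been named for lack of overlap. The recognition subunit was not higher with them, as C1qa was 543, 545 and 459 TPM against 636, 623 and 823 TPM, lower in every IL-10-Fc tumor, and C1qc was 397, 384 and 459 TPM against 632, 428 and 856 TPM. Apolipoprotein L genes, chosen after their values were seen, had 5 of 9 tested members without overlap, all higher (4.75% of all genes). Apol6 and Apol10b had been named for lack of overlap, so that count is partly fixed in advance. Apol6, the highest, was 48.6, 35.3 and 12.9 TPM against 7.40, 11.4 and 3.71 TPM (log2 change 1.89, SE 0.84), and Apol10b was 21.0, 26.2 and 14.3 TPM against 10.5, 7.73 and 3.88 TPM (1.41, SE 0.39).

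The genes of the interleukin-10 pathway overlapped between the groups. The list of 10 receptor, JAK and STAT3 genes, all tested, had a median of 0.52 (0.18 with the set term). In it 0 members were without overlap (of all genes, 4.75% were higher and 1.78% lower without overlap). Il10ra was 14.2, 16.8 and 8.56 TPM in IL-10-Fc and 7.75, 16.7 and 8.56 TPM in control tumors, and its change of 0.27 turned to -0.12 with the set term. Il10rb was 38.6, 37.4 and 19.0 TPM against 13.3, 35.9 and 11.7 TPM, Stat3 107, 86.8 and 35.6 TPM against 22.03, 93.5 and 29.5 TPM, and Ptpn11, a phosphatase acting on the pathway, 47.4, 46.5 and 22.2 TPM against 9.84, 57.7 and 13.01 TPM. All 3 followed the library sets, low in the higher-sum and high in the lower-sum tumors of either treatment. Socs3, a feedback inhibitor induced by STAT3, was 79.2, 101 and 62.7 TPM against 36.8, 72.7 and 48.8 TPM (log2 change 0.63, SE 0.48). The host gene Il10, which is not the injected human protein, was 1.37, 2.33 and 2.30 TPM against 2.05, 0.302 and 0.987 TPM.

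The list of genes that interleukin-10 induces in macrophages had 17 of 18 members tested and a median of 0.65 (0.32 with the set term). Of the 17, 0 were above and 2 below all controls (4.75% and 1.78% of all genes). In 11 of the 17 every IL-10-Fc tumor was above every control of its library set and in 2 below (17.5% and 6.61% of all genes). Hmox1, the heme oxygenase, was 115, 106 and 52.5 TPM in IL-10-Fc and 33.8, 63.1 and 14.1 TPM in control tumors. Mrc1, a mannose receptor, was 33.5, 39.9 and 43.6 TPM against 45.9, 45.4 and 65.8 TPM, lower in every IL-10-Fc tumor. Among 19 tested inflammatory mediators the median was 0.46 (0.36 with the term), or 0.26 (0.24) without control replicate 7. Of these 19, 3 were above and 2 below all controls (4.75% and 1.78% of all genes). Nos2, the inducible nitric oxide synthase, was 64.3, 58.1 and 12.3 TPM against 5.92, 17.1 and 3.24 TPM and overlapped between sets. Csf2, a growth factor for granulocytes and macrophages, was 3.14, 2.99 and 2.40 TPM against 6.52, 4.65 and 7.08 TPM with no overlap. Tnf, Il6 and Il1b, cytokines known to be restrained by interleukin-10, overlapped, with log2 changes of 0.46, 0.18 and -0.20 (0.31, 0.36 and 0.09 with the term).

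**Figure D3:**
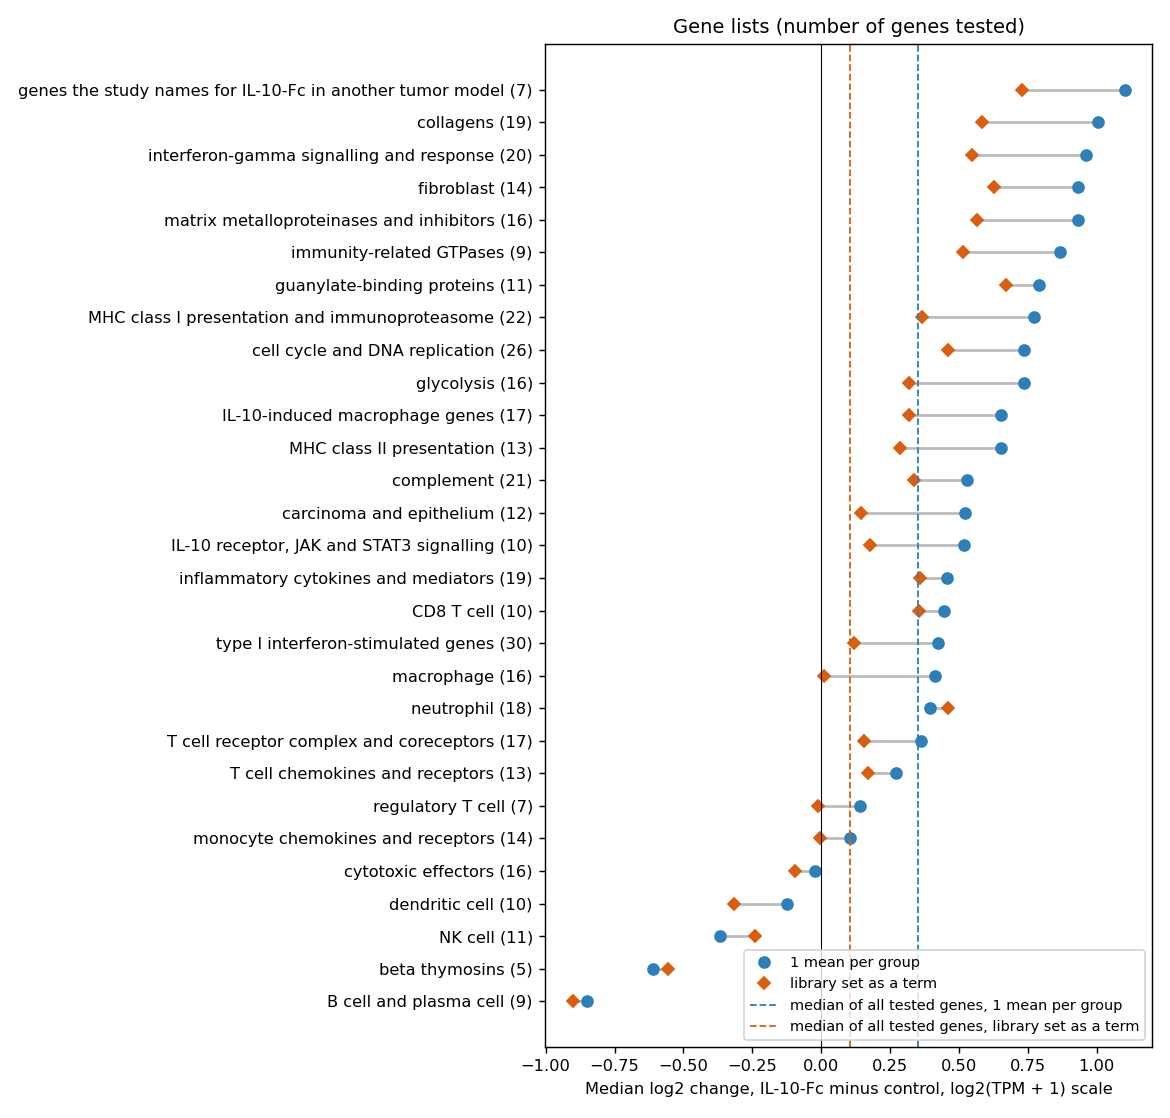
Median log2 change of 29 gene lists, IL-10-Fc minus control on the log2(TPM + 1) scale, from the fit with 1 mean per treatment (blue circles) and with the library set as a term (orange diamonds), with the number of genes tested in brackets. Dashed lines mark the medians of all tested genes, 0.35 and 0.10, and the lists of interferon-gamma and guanylate-binding protein genes lie to the right of both while B cell, NK cell and dendritic cell markers lie to the left of 0.

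T cell transcripts were low in all tumors. Cd8a, the CD8 alpha chain, was 7.98, 7.74 and 4.09 TPM in IL-10-Fc and 2.59, 3.13 and 2.72 TPM in control tumors, with no overlap (log2 change 0.95, SE 0.46, and 0.67 with the set term). Cd3e was 5.40, 6.28 and 2.63 TPM against 1.03, 3.54 and 1.77 TPM. Thy1, a surface protein shared with fibroblasts, was 252, 310 and 216 TPM against 105, 193 and 70.9 TPM. The 10 CD8 T cell markers had a median of 0.44 (0.36 with the term), which became 0.72 (0.58) without control replicate 7, the tumor with the B cell transcripts, and the number without overlap then went from 3 to 7 of 10 (4.75% and 5.77% of all genes). The wider list of 17 tested T cell receptor genes had a median of 0.36 (0.16), which was -0.01 under median of ratios scaling and 0.58 (0.49) without control replicate 7. The number without overlap in it went from 2 to 9 without that tumor, against the same shares of all genes. Foxp3, the factor of regulatory T cells, was 0.848, 0.941 and 0.383 TPM against 0.258, 0.651 and 0.654 TPM, Ctla4 2.21, 4.27 and 4.25 TPM against 3.31, 2.59 and 8.69 TPM, and Lrrc32 14.9, 18.0 and 5.02 TPM against 3.33, 7.73 and 2.33 TPM. The 7 tested regulatory T cell markers had a median of 0.14 (-0.01 with the term), under that of all genes, and of 0.18 (0.14) without control replicate 7.

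Cytotoxic effector genes split in opposite directions. In the list of 16, all tested, 3 genes were above all controls and 4 below (4.75% and 1.78% of all genes), and the median was -0.02 (-0.10 with the set term), or -0.10 (-0.16) without control replicate 7. Ccl5, a chemokine of activated T and NK cells, was 45.3, 61.9 and 37.9 TPM in IL-10-Fc and 11.7, 20.1 and 19.99 TPM in control tumors (log2 change 1.44, SE 0.57). The 4 lower genes were neighboring granzymes, serine proteases of cytotoxic granules, at 56.1 to 56.2 Mb of chromosome 14. Gzmg was 5.97, 13.4 and 10.1 TPM against 47.8, 143 and 47.4 TPM (log2 change -2.75, SE 0.72). Gzmf was 12.1, 34.0 and 11.4 TPM against 59.0, 156 and 49.6 TPM (-2.13, SE 0.70), and Gzmd was 9.08, 22.5 and 10.7 TPM against 36.3, 117 and 29.8 TPM (-1.87, SE 0.67). Gzmc was 7.68, 24.9 and 15.8 TPM against 36.8, 73.9 and 34.0 TPM (-1.57, SE 0.62). In all 4 the highest control was the lower-sum library, replicate 5, and the 4 values changed little with the set term (-2.89, -2.37, -2.12 and -1.59). These granzymes are near copies, so reads may have been shared among them, but Gzme, in the same cluster, overlapped at 9.88 to 31.1 against 15.9 to 58.4 TPM.

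Gzmb, the granzyme usually taken as the measure of CD8 T cell cytotoxicity, was 12.2, 20.7 and 12.6 TPM in IL-10-Fc and 12.2, 25.2 and 12.04 TPM in control tumors, a log2 change of -0.07 (SE 0.47), and was positive without control replicate 5 (0.26). Gzma was 1.70, 7.19 and 9.52 TPM against 11.4, 6.62 and 9.57 TPM. Of 13 NK cell markers 11 were tested, with a median of -0.37 (-0.24 with the term) and 2 below all controls (1.78% of all genes). Without control replicate 7 the median was -0.18 (-0.17). Ncr1, which encodes the NK cell receptor NKp46, was 0.911, 2.38 and 2.81 TPM against 5.79, 4.72 and 6.05 TPM (log2 change -1.16, SE 0.48). Fcrl6, a receptor of cytotoxic lymphocytes that binds MHC class II, was 0.393, 0.494 and 0.473 TPM against 2.73, 8.11 and 2.93 TPM (-1.81, SE 0.43), with every IL-10-Fc tumor at or below 0.494 TPM.

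Genes known from osteoclasts, the bone-resorbing cells of the monocyte lineage, were 5 of the 12 named higher genes. Ctsk, the collagen-cutting protease cathepsin K, was 257, 323 and 409 TPM in IL-10-Fc and 205, 131 and 32.2 TPM in control tumors (log2 change 1.75, SE 0.67). Acp5, tartrate-resistant acid phosphatase, was 305, 306 and 317 TPM against 133, 147 and 53.9 TPM (1.59, SE 0.58). Atp6v0d2, a proton pump subunit, was 11.1, 12.3 and 12.9 TPM against 6.18, 5.10 and 1.11 TPM. For Acp5 and Atp6v0d2 the IL-10-Fc tumors were close together, and for all 3 genes the controls spread over a wider range with the lowest value in replicate 7. Slc9b2, a sodium and proton exchanger, was 22.4, 18.2 and 26.7 TPM against 13.8, 7.91 and 1.63 TPM, and Oscar, an activating receptor, 4.87, 4.18 and 4.83 TPM against 1.51, 1.83 and 0.288 TPM. A list of 16 such genes was drawn up after these values were seen. It holds named genes that were chosen for lack of overlap, so its count without overlap is partly fixed in advance. That count was 10 of its 15 tested genes, also without control replicate 7 (4.75% and 5.77% of all genes). The median of the list was 1.14 in both fits, and 0.86 and 0.88 without that tumor. The log2 changes of Ctsk, Slc9b2 and Atp6v0d2 were then 0.98, 1.02 and 0.98 in place of 1.75, 1.72 and 1.53. Mmp9, a gelatinase that osteoclasts and neutrophils share, was 319, 397 and 229 TPM against 94.1, 148 and 37.4 TPM. Ostm1, Tcirg1 and Nfatc1, also needed by osteoclasts, overlapped between the groups, and the calcitonin receptor gene Calcr, a marker of mature osteoclasts, was at most 0.102 TPM in every tumor. Mt3, a metallothionein, was 5.76, 6.26 and 11.2 TPM against 2.96, 3.16 and 0.865 TPM (1.43, SE 0.51).

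Matrix genes were higher on the whole and varied widely among controls. The 19 collagen genes, all tested, had a median of 1.00 (0.58 with the set term), and 14 fibroblast markers one of 0.93 (0.63). Without control replicate 7 these became 0.64 (0.47) and 0.43 (0.41). Col1a1 was 822, 1537 and 522 TPM in IL-10-Fc and 182, 739 and 94.0 TPM in control tumors, and Col1a2 was 749, 1426 and 685 TPM against 212, 814 and 90.7 TPM. Sparc, a matrix protein of fibroblasts, was 1225, 1444 and 509 TPM against 209, 939 and 117 TPM, and Acta2, the actin of contractile fibroblasts, was 151, 287 and 163 TPM against 83.0, 114 and 18.2 TPM. Control replicate 5 lay within the IL-10-Fc range for both collagens and for Sparc, and the other controls lay below it. Of 16 tested matrix metalloproteinases and inhibitors (median 0.93, or 0.57 with the term, and 0.57 and 0.46 without control replicate 7), Mmp13, a collagenase, was 55.8, 104 and 96.6 TPM against 57.4, 37.6 and 18.4 TPM.

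Macrophage markers had a median close to that of all genes. Their median over 16 tested genes was 0.41, 0.01 with the set term and 0.00 under median of ratios scaling. It was 0.31 (0.17 with the term) without control replicate 7. Of the 16, 2 were above and 3 below all controls, against 4.75% and 1.78% of all genes. Adgre1, encoding the macrophage protein F4/80, was 16.9, 22.9 and 18.6 TPM in IL-10-Fc and 16.0, 15.9 and 16.7 TPM in control tumors, a small difference without overlap (log2 change 0.24, SE 0.39, and -0.18 under median of ratios scaling). The summed level of the macrophage list ran from 2250.0 to 3875 TPM in IL-10-Fc and from 2344 to 3588 TPM in control tumors. The 18 tested neutrophil markers had a median of 0.39 (0.46 with the term, and -0.02 under median of ratios scaling). Of these 18, 2 were above all controls (4.75% of all genes). Csf3r, a receptor of neutrophils, was 16.8, 22.8 and 6.91 TPM against 2.82, 14.0 and 2.96 TPM. The 14 monocyte chemokine and receptor genes had a median of 0.10 (-0.01), below that of all genes, and of -0.20 (-0.12) without control replicate 7. Of these Ccl12, a monocyte attractant, was 58.0, 62.8 and 99.3 TPM against 172, 109 and 114 TPM, and Ccl24, an eosinophil attractant of macrophages, 17.9, 7.68 and 9.98 TPM against 22.6, 22.8 and 46.0 TPM. Neither overlapped.

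Several of the named lower genes are known from dendritic cells or act on them. Tslp, an epithelial cytokine that acts on dendritic cells, was 2.26, 1.63 and 2.07 TPM in IL-10-Fc and 6.12, 8.94 and 4.47 TPM in control tumors (log2 change -1.29, SE 0.43, and -1.41 with the set term). Ccl17, a chemokine of dendritic cells, was 3.36, 2.65 and 2.44 TPM against 4.76, 5.86 and 19.1 TPM, and Cd83, found on activated dendritic and B cells, was 4.65, 4.77 and 4.37 TPM against 12.1, 5.32 and 25.1 TPM. For both the highest value was control replicate 7, and without it their log2 changes were -0.73 and -0.70 in place of -1.28 and -1.21. Rnase2a, a ribonuclease of the eosinophil family, is not among them and was 7.49, 1.84 and 1.19 TPM against 8.16, 13.3 and 16.0 TPM (-1.80, SE 0.50). The 8 tested mast cell, basophil and eosinophil markers had a median of 0.12 (0.18 with the term). Ctla2a, a cysteine protease inhibitor first found in T cells, was 230, 355 and 419 TPM against 850, 444 and 804 TPM. The 10 tested dendritic cell markers had a median of -0.13 (-0.32), which was 0.06 (-0.05) without control replicate 7, and Fscn1, an actin-bundling protein of mature dendritic cells, was 279, 312 and 172 TPM against 105, 260 and 118 TPM.

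B cell and plasma cell markers rested on that 1 control tumor. Of 14 genes 9 were tested, their median was -0.85 (-0.90 with the set term), and without control replicate 7 it was 0.22 (0.13). Their summed level was 196 to 402 TPM in IL-10-Fc tumors and 237, 239 and 1608 TPM in control replicates 4, 5 and 7. Cd79b, a B cell receptor subunit, was 0.754, 0.941 and 0.485 TPM against 2.44, 0.460 and 29.5 TPM. Cxcl13 and Ccl21a, chemokines of lymphoid tissue in the T cell chemokine list, were 5.94, 33.5 and 4.60 TPM against 32.7, 3.75 and 38.8 TPM, and 0.0628, 25.6 and 2.82 TPM against 14.4, 1.64 and 190 TPM. That list of 13 tested genes had a median of 0.27 (0.17, and -0.16 under median of ratios scaling). Ccl5 and Cxcl10 were its only members above all controls (4.75% of all genes). The part of the B cell transcripts in these differences was not tested.

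Proliferation and glycolysis genes had medians above that of all genes. The 26 cell cycle genes, all tested, had a median of 0.74 (0.46 with the set term), and all 26 lay above the all-gene median in the fit with the term and 19 in the fit without. Foxm1, a transcription factor of mitotic genes, was 56.9, 45.2 and 17.8 TPM in IL-10-Fc and 7.37, 44.4 and 7.495 TPM in control tumors, and Aurkb, a mitotic kinase, was 75.0, 50.4 and 26.7 TPM against 9.21, 62.8 and 11.9 TPM. Both were low in the higher-sum libraries of either treatment. Ccnb2, a mitotic cyclin, was 130, 122 and 104 TPM against 52.8, 102 and 38.7 TPM and did not overlap. Mki67, by contrast, was 54.9, 63.0 and 83.5 TPM against 62.6, 61.6 and 53.3 TPM. Glycolysis genes had a median of 0.73 (0.32) over 16, and 5 of them were above all controls (4.75% of all genes). Pkm, pyruvate kinase, was 1969, 2019 and 929 TPM against 425, 1732 and 618 TPM. Slc2a1, a glucose transporter, was 121, 127 and 60.0 TPM against 34.4, 93.8 and 34.8 TPM. The 12 tested carcinoma markers had a median of 0.52 (0.14), and among them Krt14 was 27.0, 86.4 and 28.9 TPM against 31.7, 14.2 and 6.76 TPM and Cdh1, encoding E-cadherin, 60.3, 44.2 and 9.21 TPM against 6.84, 51.1 and 7.62 TPM.

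The study names 7 genes as higher after both IL-10-Fc and BF10, though not after the CSF1R antibody, in another tumor model. Its Apo11a was read here as Apol11a. All 7 were tested here, with a median of 1.10 (0.73 with the set term), and 3 of them, Mmp9, C1s2 and Apol11a, did not overlap (4.75% of all genes). Apol11a was 5.42, 5.63 and 2.68 TPM in IL-10-Fc and 2.21, 1.45 and 1.02 TPM in control tumors. Wnt7a was 7.54, 6.42 and 2.68 TPM against 2.66, 3.38 and 1.16 TPM, while Elane, a neutrophil granule protease, was 0.314, 3.96 and 2.95 TPM against 0.606, 0.635 and 2.23 TPM.

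**Figure D4:**
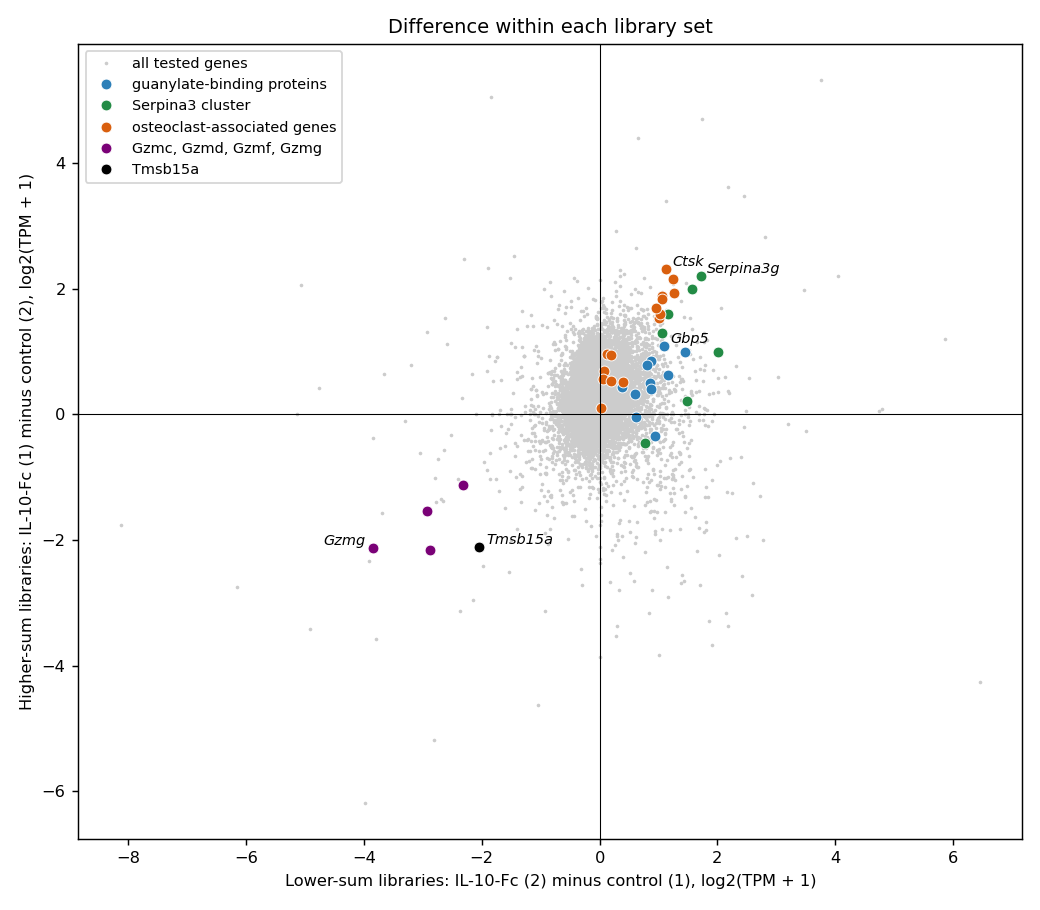
Difference between IL-10-Fc and control tumors within the lower-sum libraries (horizontal axis) and within the higher-sum libraries (vertical axis), in log2(TPM + 1), for all 15504 tested genes (gray) and for the families described above (colors). Serpina3g, Ctsk and Gbp5 lie above 0 on both axes, Tmsb15a and 4 granzymes lie below 0 on both, and the gray cloud is centered at -0.07 on the horizontal and 0.33 on the vertical axis.

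Within the sets the middle gene differed by -0.07 in the lower-sum libraries (2 IL-10-Fc tumors, 1 control) and by 0.33 in the higher-sum libraries (1 IL-10-Fc tumor, 2 controls). Each IL-10-Fc tumor was above each control of its set for 2714 genes (17.5%) and below for 1025 genes (6.61%). The 24 genes of the plot of named genes were chosen to have the same direction in both sets. Of the 11 guanylate-binding proteins 9 were above in both sets, and of the 16 cytotoxic effectors 4 were above and 5 below. A gene without overlap is on one side in both sets by definition. This held for 8 of those 9 and for 3 of those 4 and 4 of those 5, so these counts are not separate evidence. The 4 lower genes without overlap, the granzymes, are also genes of the plot. Of the 15 tested osteoclast genes 13 were above in both sets. That list was drawn up after its values were seen and holds genes of the plot, so its count is partly fixed in advance.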

How the data were processed

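RNA of each tumor was prepared with a stranded polyadenylated RNA kit and sequenced on a NextSeq 550, and the authors aligned reads to mouse GRCm38 with STAR 2.7.5a and estimated levels with RSEM 1.3.3, per the labels and the submitters' processing notes. The deposited table gives FPKM per gene for 55401 genes. The authors' tables of comparisons (DESeq2 1.28.0 fold changes and p-values) were not used. Counts and depths per library are not part of the values used here. From the low values, the relative depth of the 6 libraries was 0.946 to 1.02.

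Each column was rescaled to a sum of 1000000 (written TPM), log2(TPM + 1) was taken, and genes of at least 1 TPM in at least 3 of the 12 libraries (15504 of the 34194 with any value) were fitted with limma 3.58.1 in R 4.3.3 (empirical Bayes with trend, 1 mean per treatment, all 12 libraries, 8 residual degrees of freedom). A gene was called at a Benjamini-Hochberg adjusted p below 0.05 and at least 1.5-fold. Tests were two-sided, and fold changes on this scale understate those of low genes. The second fit added the library set, divided at an FPKM sum of 700000, with its effect estimated from all 12 libraries (7 residual degrees of freedom). The procedure was tested on simulated data. Each tumor gave 1 library, and p-values measure the spread between these tumors.

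The text names every called gene, the 12 largest changes each way among genes with an official symbol (no Gm or Rik names, pseudogenes or RNA genes), an unadjusted p below 0.05 in both fits, at least 3 TPM in either group, no overlap and the same direction in both sets, the 2 members of each of 29 lists farthest from the all-gene median, and 11 core genes, of which 1 is not reported here. Other members, and the Serpina3, osteoclast and apolipoprotein L lists, were picked after their values were seen. The members and lists were chosen with earlier results of these data known. Promoter stretches are from RefSeq (GRCm38.p6), with 250 bases searched. Alternatives changed the scaling, pseudocount, filter, libraries, threshold and replicate number.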

Additional observations from a re-analysis of the deposited data

How the results depend on the processing

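The count of changed genes was small under every alternative. It was 1 as reported, 0 on FPKM without rescaling, 0 with a pseudocount of 0.1, 0 with a filter of 5 TPM, 0 with only the 6 libraries in the fit, 2 without a filter (Tmsb15a and Snora2b), 1 under median of ratios scaling (Gm47314), 4 with the library set as a term, 3 when median of ratios scaling was added to it (Tmsb15a, Gm22680 and Gm47314) and 1 with the term and only the 6 libraries (Gm22680). In limma, an unadjusted p below 0.05 was reached by 300 genes without rescaling, 223 with the pseudocount of 0.1, 140 with the stricter filter and 455 with only the 6 libraries. Leaving out 1 tumor gave 0 to 1 changed genes, and 114 to 1546 genes at an unadjusted p below 0.05. With the set as a term it gave 0 without control replicate 4, control replicate 5, IL-10-Fc replicate 2 or IL-10-Fc replicate 4 and 1 without either of the others, with 317 to 786 genes at an unadjusted p below 0.05. With the replicate number as a replicate block it was 0, with 1948 at an unadjusted p below 0.05. The groups share only replicate numbers 4 and 7, whose deviations correlated at -0.26 and 0.35, no label says that the numbers pair the tumors, and 2 residual degrees of freedom were left. The adjusted p of Tmsb15a ran from 0.0119 to 0.364 over the alternatives, and its log2 change kept its sign.

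Of 1816 comparisons of named genes, 36 changed sign, in 12 genes. The 12 higher and 12 lower genes of the plot had been chosen for no overlap and one direction in both sets. The low number of sign changes is therefore partly fixed in advance. Under median of ratios scaling the log2 change was -0.18 for Adgre1 and -0.14 for Il10ra. With the set as a term it was -0.010 for Foxp3 and -0.12 for Il10ra, with only the 6 libraries as well it was -0.023 for Il10ra, and with the term and median of ratios scaling it was -0.050 for Adgre1, -0.094 for Foxp3, -0.30 for Il10ra and -0.00018 for Stat3. With the replicate block it was 0.39 for Gzmb. Leaving out 1 tumor, the change ran from -0.53 to 0.18 for Ctla4, from -0.30 to 0.26 for Gzmb and from -3.34 to 0.20 for Jchain. With the term and without control replicate 4 it was -0.045 for Foxp3 and -0.12 for Il10ra. Without control replicate 5 it was -0.10 for Adgre1, -0.21 for Foxp3, 0.17 for Gzmb and -0.24 for Il10ra. Without control replicate 7 it was 0.15 for Ctla4, -0.060 for Il10ra and 0.34 for Jchain. Without IL-10-Fc replicate 2 it was 0.023 for Gzma and -0.011 for Il10ra, and without IL-10-Fc replicate 4 it was -0.010 for Foxp3 and -0.11 for Il10ra. Without IL-10-Fc replicate 7 it was -0.037 for Adgre1, -0.041 for Aurkb, -0.070 for Foxp3, 0.17 for Ifit3, -0.34 for Il10ra, -0.11 for Il10rb, -0.23 for Ptpn11 and -0.16 for Stat3. The cause was not tested. Of 638 comparisons of list medians, 548 moved by less than the spread between tumors. That spread includes the difference between library sets and exceeded the median itself in some lists. It was 0.76 for glycolysis (median 0.73) and 0.57 for type I interferon-stimulated genes (median 0.42). A median could thus fall to 0 and still be counted among the 548, so the count does not measure stability. Read depth is unknown, so precision at low levels cannot be set from these values.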

Other observations

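The other 6 tumors of the series, which share their controls with the comparison above, gave these genes a second set of values, listed here side by side and not tested. Tmsb15a was 0.422, 0.301 and 0 TPM in BF10 replicates 3, 6 and 7 and 0.406, 0.640 and 1.05 TPM in aCSF1R replicates 4, 6 and 8, all below the lowest control, 3.13 TPM. Gbp5 was 45.4, 32.4 and 46.7 TPM in BF10 and 36.9, 35.9 and 26.5 TPM in aCSF1R tumors, all above the highest control, 19.4 TPM. Serpina3g was 186, 86.5 and 117 TPM in BF10 and 132, 75.5 and 31.8 TPM in aCSF1R tumors, against 31.5 to 45.5 TPM in controls.

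Acp5 was 617, 217 and 212 TPM in BF10 and 50.1, 54.2 and 13.7 TPM in aCSF1R tumors. Ctsk was 763, 243 and 193 TPM in BF10 and 69.5, 40.0 and 31.2 TPM in aCSF1R tumors, against 32.2 to 205 TPM in controls. Oscar was 0.146, 0.115 and 0 TPM in aCSF1R tumors. Among the granzymes of chromosome 14, Gzmg was 9.31, 18.6 and 36.8 TPM in BF10 and 25.4, 177.2 and 56.6 TPM in aCSF1R tumors, with aCSF1R replicate 6 above the highest control, 143 TPM. The microRNA gene Gm47314, listed at 0 in the control tumors, was also listed at 0 in the 3 BF10 tumors and in aCSF1R replicates 6 and 8, and was 1.04 TPM in aCSF1R replicate 4. The small nucleolar RNA gene Gm22680 was 77.1, 5.96 and 31.2 TPM in BF10 and 25.6, 49.5 and 15.1 TPM in aCSF1R tumors.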
